A study of Mus musculus with 12 samples.

Results

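The 10 genes described here encode microtubule-associated proteins of the Map7 family (Map7, Map7d1, Map7d2 and Map7d3), chains of the motor kinesin-1 (the heavy chains Kif5a, Kif5b and Kif5c and the light chain Klc1) and the atypical kinesins Kif26a and Kif26b. They were taken by symbol from a count table of 24421 genes. Of these, 9 were found under their current symbol and Map7d3 under its older symbol Mtap7d3. Map7 and Kif26a had been selected on their measured count difference between the tumour lines compared here, and the other 8 were chosen as relatives and partners of these proteins with earlier results known. The values of Map7 and Kif26a in that comparison are therefore given as a description with no test.

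Ribosome-bound mRNA was precipitated from subcutaneous tumours of the mouse melanoma lines B16F10 (highly metastatic, n = 7 libraries) and B16F0 (poorly metastatic, n = 5), 12 days after they were placed in syngeneic hosts. All hosts were C57BL/6 mice of the genotype Rpl22fl/flHA;Cdh5(PAC)-CreERT2 and all received tamoxifen. In these mice the Cdh5 promoter drives an inducible Cre recombinase in endothelial cells, which switches on an HA tag on the ribosomal protein Rpl22, so that both groups carry the same tag and treatment. The labels give no age and name no separate animals for the replicates. The p-values therefore measure the spread between these libraries only, which may be technical.

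The libraries held 5322510 to 20569186 counts in B16F10 and 10753106 to 17381336 in B16F0, spread over sequencing lanes 1, 2 and 6. Values are CPM, counts scaled by the library total after TMM correction (a scaling for differences in RNA composition), and a mean ± SD is over the 7 B16F10 or the 5 B16F0 libraries unless another n is given. The labels call the source endothelial cells, but Dct, a melanin enzyme of the tumour cells, stood at 4033 to 9968 CPM, against 78.6 to 764 CPM for the endothelial cadherin gene Cdh5. The endothelial score, the mean log2 CPM of 20 endothelial genes, lay between 6.52 and 7.22 in B16F10 replicates 4 and 5 and B16F0 replicate 3, and between 4.46 and 5.36 in the other 9 libraries. The melanocytic score, the same measure over 20 pigment cell genes, averaged 8.36 ± 0.26 in B16F10 against 8.67 ± 0.23 in B16F0. In such bulk precipitates, fewer cells of a type and less RNA per cell cannot be told apart.

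Kinesin-1 carries vesicles, mitochondria and other cargo toward the plus ends of microtubules. It is built from heavy chains, which hold the motor, and light chains, which help to bind cargo. Proteins of the Map7 family bind along the microtubule and recruit kinesin-1 to it, and Map7 was first described in epithelial cells. Kif5b is expressed in most tissues, whereas Kif5a and Kif5c are best known from neurons. Kif26a and Kif26b are kinesins with little or no motor activity that take part in signalling. Kif26a is known for its link to Grb2 and the Ret receptor in enteric neurons, and Kif26b for its part in signalling by Wnt5a and Ror receptors.

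Per length, Kif5b and Klc1, the main heavy and light chain genes, were the most abundant of the set. The level of a gene was divided by the length of its merged annotated exons, which ran from 2891 bases for Map7d3 to 14696 bases for Kif26b, and which overstates the length where only some exons are used. Kif5b stood at 76.2 ± 19.7 CPM per kb (SD, n = 12), Klc1 at 56.3 ± 14.1, Map7d1 at 30.9 ± 8.69 and Map7d2 at 5.31 ± 1.77 CPM per kb. Kif26a and Map7 followed at 2.61 ± 1.92 and 1.12 ± 0.83 CPM per kb, and Kif5c, Kif26b, Kif5a and Map7d3 stood below 1, at 0.95 ± 0.77, 0.79 ± 0.49, 0.28 ± 0.12 and 0.13 ± 0.088 CPM per kb. Each gene lay above the next in at least 10 of the 12 libraries, except that Map7 lay above Kif5c in 6 and Kif5c above Kif26b in 5, so the order of these 3 is not set. The order also differed between the lines. By group means, Kif26a and Map7 stood at 4.003 and 1.76 CPM per kb in B16F10, above Kif5c at 1.15 and Kif26b at 1.05. In B16F0 Kif26a and Kif5c were both at 0.67 CPM per kb, and Map7, at 0.22, was below Kif26b at 0.42 and Kif5a at 0.24. Klc1 exceeded Kif5b, against the order of the means, in 2 B16F10 libraries.

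**Figure D1:**
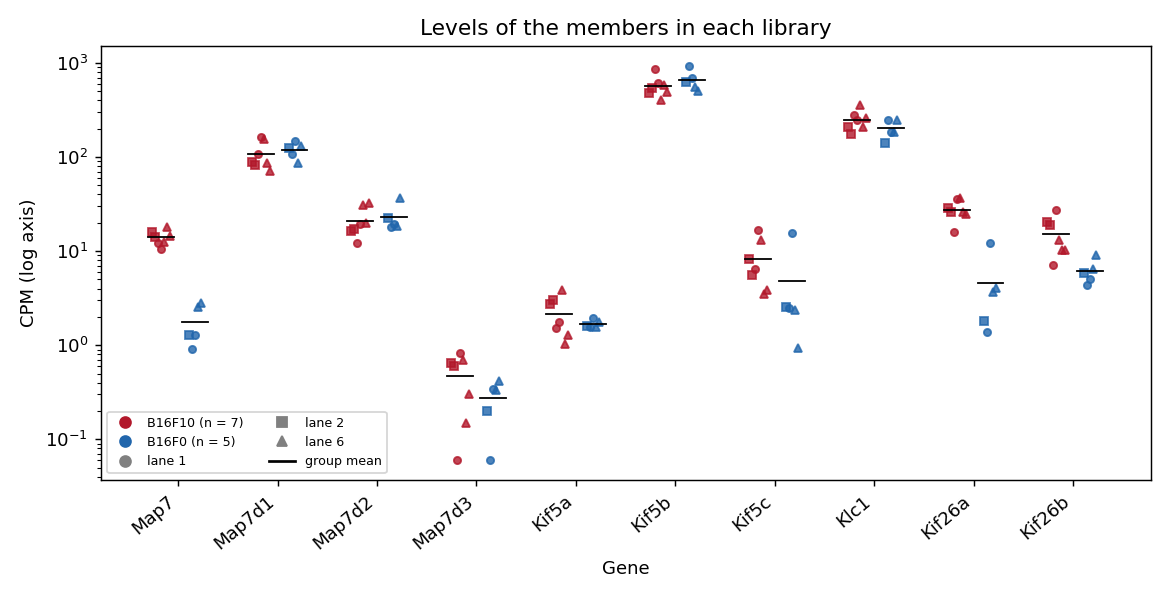
Level of each of the 10 genes in CPM (log axis) by library, with B16F10 in red (7 libraries) and B16F0 in blue (5), symbols for the lane and black lines for the group means. The groups do not overlap for Map7 and Kif26a, and Map7d3 stays below 1 CPM throughout.

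Map7 was the member with the largest difference between the tumour lines. It lies on chromosome 10 from 20148471 to 20281590 (GRCm38, plus strand). In B16F10 replicates 1 to 7 it stood at 16.03, 14.0, 12.2, 10.7, 12.5, 18.0 and 14.6 CPM, and in B16F0 replicates 1 to 5 at 1.27, 0.91, 1.28, 2.54 and 2.83 CPM. Every B16F10 library was thus above every B16F0 library. The B16F0 values rest on 15 to 45 reads a library and those of B16F10 on 90 to 366 reads. The log2 fold change was 3.02 ± 0.24 (SE), about 8.09-fold, and the differences of mean log2 CPM were 3.23, 3.41 and 2.41 in lanes 1, 2 and 6. The spread within a line was small in B16F10, with a coefficient of variation of 17.8%, and larger in B16F0 at 48.6%. An antisense gene on the other strand, Gm48249, covers 332 of the 7935 exon bases of Map7, and the strand setting of the counting is not given in the sources used here.

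For the other members of the Map7 family the groups overlapped. Map7d1, the most abundant of them, had a lowest, median and highest level of 70.8, 89.0 and 164 CPM in B16F10 and stood at 124, 109, 150, 86.4 and 130 CPM in B16F0 replicates 1 to 5. The groups overlapped, and the log2 fold change was -0.12 ± 0.22 (SE), at an adjusted p of 0.852 in edgeR. Map7d2, a family member known from the brain, ran from 12.2 through a median of 19.2 to 32.2 CPM in B16F10. In B16F0 it stood at 22.3, 18.2, 19.4, 18.6 and 36.6 CPM, which spans most of the B16F10 range. Its log2 fold change was -0.19 ± 0.20 (SE), at an adjusted p of 0.733 in edgeR, and the sign of the Map7d1 and Map7d2 values changed under some settings. Map7d3 had 1 to 7 reads in each library and did not pass the filter on low counts. With no filter its log2 fold change was 0.60 (edgeR adjusted p = 0.751).

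By level per length, Map7 was a minor part of its family in both lines. Its share of the summed family level was 5.24 ± 1.87% in B16F10 against 0.60 ± 0.35% in B16F0. Map7d1 made up 79.7 ± 7.14% and 84.7 ± 3.88% in the same groups, and Map7d2 14.6 ± 6.05% and 14.4 ± 3.56%. The family's summed level was 36.6 ± 10.4 CPM per kb in B16F10 and 38.7 ± 7.32 in B16F0, a gap smaller than either SD. The highest sums in B16F10, 51.3 and 52.0 CPM per kb, were those of replicates 4 and 5, the libraries of that line with the highest endothelial score.

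**Figure D2:**
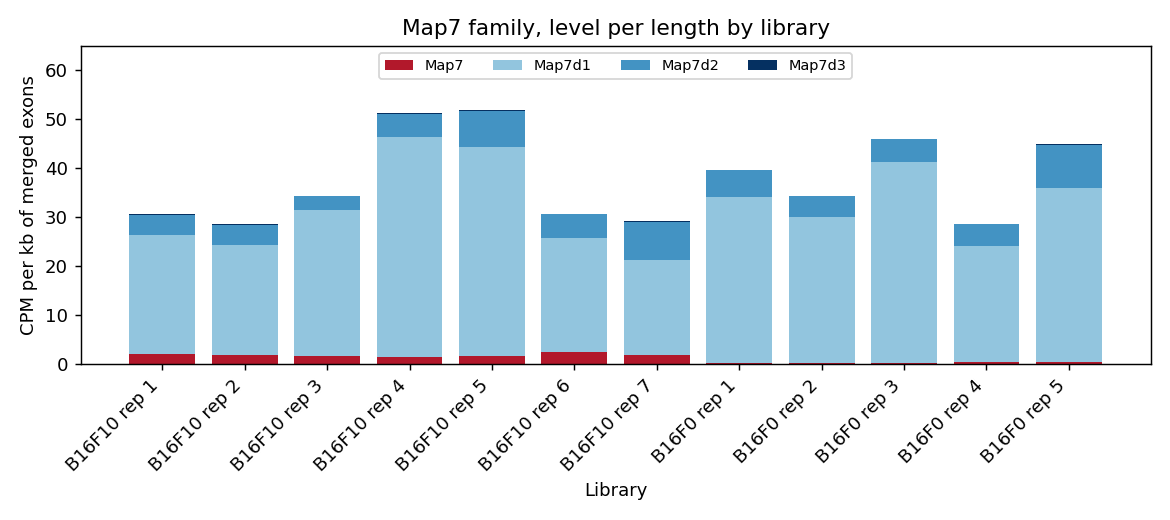
Level of the 4 Map7 family genes in CPM per kb of merged exons, stacked for each of the 12 libraries. Map7d1 forms most of each bar, and the Map7 segment is 2.62% to 7.44% of the B16F10 bars and 0.33% to 1.12% of the B16F0 bars.

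Among the kinesin-1 heavy chains nearly all of the level per length came from Kif5b. Its share averaged 97.8 ± 1.37% in B16F10 against 98.9 ± 0.96% in B16F0. Kif5b ranged from 400.1 to 871 CPM in B16F10, with a median of 545 CPM. It stood at 626, 936, 684, 561 and 508 CPM in B16F0 replicates 1 to 5, within or just above that range. The log2 fold change was -0.16 ± 0.16 (SE), at an adjusted p of 0.711 in edgeR. Kif5a, the least abundant heavy chain gene, was between 1.04 and 3.82 CPM with a median of 1.78 in B16F10 and at 1.61, 1.57, 1.96, 1.58 and 1.78 CPM in B16F0, on 15 to 33 reads a library. Its log2 fold change was 0.26 ± 0.38 (SE), at an adjusted p of 0.817 in edgeR. The highest Kif5a levels, 2.73, 3.00 and 3.82 CPM, were in B16F10 replicates 1, 2 and 5. These 3 libraries also held the most reads of 1501 olfactory, vomeronasal and taste receptor genes, which most tissues do not express, with sums of 807, 670 and 307 CPM against 10.4 to 169 CPM in the other 9. The part of these reads in the Kif5a level was not tested.

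The light chain gene Klc1 was at 209, 176, 281, 250, 357, 210 and 260 CPM in B16F10 replicates 1 to 7 and at 140, 246, 185, 186 and 250 CPM in B16F0 replicates 1 to 5. The B16F10 values lean higher, but the groups overlap. The log2 fold change of 0.35 ± 0.16 (SE) did not pass over all genes (edgeR adjusted p = 0.344, unadjusted p = 0.0521), and the differences of mean log2 CPM were 0.31, 0.45 and 0.32 in lanes 1, 2 and 6. The summed heavy chain level over that of Klc1, both per length, was 1.24 ± 0.36 in B16F10 against 1.75 ± 0.48 in B16F0. The ratio ranged from 0.598 to 1.602 and from 1.04 to 2.29 in these groups, so they overlapped, and it was lowest in B16F10 replicate 5 and, within B16F0, in replicate 5. These are the libraries in which the ribosomal RNA precursor gene Rn45s took over 5% of counts. Its share was 31.4% in B16F10 replicate 5, 8.91% in B16F0 replicate 5 and at most 1.75% elsewhere. The part of Rn45s in the ratio was not tested.

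Stretches upstream of the genes are shown for Kif5c, the member that followed endothelial content, and for Kif26a and Kif26b, which both had negative slopes on the melanocytic score. RefSeq's table of gene starts (GRCm38.p6) held 8 of the 10 members. Each sequence is the 250 bases before the start, 5′ to 3′ on the gene's strand, with matches on either strand to the motifs of the next paragraph in capitals. The window of Map7 lies entirely within an annotated exon and is not printed. The windows are chr2:49619036-49619285, chr12:112145958-112146207 and chr1:178528875-178529124, all on the plus strand.
Kif5c: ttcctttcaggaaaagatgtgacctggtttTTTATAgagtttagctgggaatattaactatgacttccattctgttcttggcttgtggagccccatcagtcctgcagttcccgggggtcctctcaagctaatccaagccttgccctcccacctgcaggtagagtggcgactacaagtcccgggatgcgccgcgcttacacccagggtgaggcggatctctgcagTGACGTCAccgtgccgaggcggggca
Kif26a: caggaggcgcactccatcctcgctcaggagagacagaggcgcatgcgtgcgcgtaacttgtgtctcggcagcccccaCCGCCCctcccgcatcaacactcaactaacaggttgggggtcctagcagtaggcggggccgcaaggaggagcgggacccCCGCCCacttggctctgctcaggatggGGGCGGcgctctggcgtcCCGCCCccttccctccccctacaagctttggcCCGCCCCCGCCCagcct
Kif26b: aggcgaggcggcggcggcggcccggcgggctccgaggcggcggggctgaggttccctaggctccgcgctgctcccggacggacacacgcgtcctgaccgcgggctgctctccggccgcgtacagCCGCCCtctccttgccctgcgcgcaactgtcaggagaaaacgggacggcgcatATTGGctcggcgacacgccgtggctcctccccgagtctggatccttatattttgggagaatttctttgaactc

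Both Kif26 windows are rich in G and C, at 69.2% for Kif26a and 68.4% for Kif26b, against 55.2% for Kif5c. The GC box GGGCGG occurred 6 times, without overlap and over both strands, before Kif26a and 1 time before Kif26b, and 32.7% of all 32851 windows held it. The Kif26b window also held the box CCAAT, as did 33.8% of all windows. The Kif5c window held TATAAA and the cAMP response element TGACGTCA, which were in 12.4% and 1.55% of all windows. Among the other members TGACGTCA was found before Klc1 as well, and GGGCGG before Map7, Map7d1, Map7d3 and Klc1. A high GC content was not particular to the Kif26 genes either, with 80.4% for Map7 and 72.4% for Klc1. The E-box CACGTG (6.02% of all windows) and the related CATGTG (12.3%), which factors of the Mitf type can bind, were in none of the 3 printed windows, and neither was the ETS core CCGGAA (12% of all windows). A match is a description of these letters and not of a bound site.

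Kif5c followed the endothelial content of the libraries. It stood at 16.7 and 13.2 CPM in B16F10 replicates 4 and 5 and at 15.5 CPM in B16F0 replicate 3, the 3 libraries of highest endothelial score. In the other B16F10 libraries, replicates 1, 2, 3, 6 and 7, it was at 8.18, 5.60, 6.47, 3.501 and 3.87 CPM, and in B16F0 replicates 1, 2, 4 and 5 at 2.54, 2.48, 2.37 and 0.94 CPM. The endothelial-rich libraries were thus the highest in each line, and at similar levels in both. With lane and tumour line in the fit, the log2 CPM of Kif5c rose by 1.02 per unit of the score (95% interval 0.68 to 1.36; limma adjusted p = 0.00149). Genes were called here when the slope exceeded 0.5 in size with an adjusted p below 0.05. Among the 13534 tested genes 3.83% met this for a rise and 0.177% for a fall, and among the 9 tested members Kif5c alone did, for a rise. Without the 3 libraries of highest score the slope was 1.29, with an adjusted p of 0.999861 in limma, and no gene of the table was called.

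Between the lines, Kif5c had a log2 fold change of 1.24 ± 0.56 (SE), at an adjusted p of 0.323 in edgeR, with overlapping groups. With the endothelial score as a covariate the fold change was 1.21 and passed (edgeR adjusted p = 0.0194). With the melanocytic score it was 0.35 (edgeR adjusted p = 0.704), without the libraries over 5% Rn45s 0.70 (0.584) and without B16F0 replicate 3 1.86 (0.0529). Without the 3 endothelial-rich libraries the fold change was 1.29 and did not pass (edgeR adjusted p = 0.0581). In the libraries left, the 5 B16F10 values, from 3.501 CPM up, all lay above the 4 B16F0 values, from 2.54 CPM down. The share of all tested genes split in this way was not counted, so nothing is read from the split. Of these 5 B16F10 libraries, replicates 1 and 2 had the highest sums of the receptor genes, 807 and 670 CPM. In replicates 3, 6 and 7 the receptor sums were 27.3 to 130 CPM, and in the 4 B16F0 libraries 10.4 to 137 CPM. The part of these reads in the Kif5c level was not tested. In the authors' deposited table the log2 fold change of Kif5c was 1.35 with an adjusted p of 0.113. Kif5c is best known from neurons, and the summed level of 11 neuron and Schwann cell genes was not highest in these libraries. In B16F10 it was 229 and 147 CPM in replicates 4 and 5 and 160 to 279 CPM in the other 5 libraries. In B16F0 it was 289 CPM in replicate 3 and 221 to 511 CPM in the other 4. Of these 11 genes, 6 passed the filter on low counts, and 1 of the 6 itself followed the endothelial score. The part of neurons and Schwann cells in the Kif5c level was not tested. The summed level of 6 adipocyte genes was highest in the same 3 libraries as Kif5c, with 507 and 714 CPM in the B16F10 pair and 785 CPM in the B16F0 library. Elsewhere it lay between 67.6 and 367 CPM. Of these 6 genes, 2 passed the filter on low counts, and 1 of the 2 itself followed the endothelial score. The part of adipocytes in the Kif5c level was not tested.

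Map7 did not follow endothelial content. Its slope was -0.098 (95% interval -0.40 to 0.21; limma adjusted p = 0.701), and its levels in the endothelial-rich B16F10 libraries, 10.7 and 12.5 CPM, were among the 3 lowest of that line. In B16F0 replicate 3, at 1.28 CPM, it was at the median of its group. With the endothelial score in the fit the Map7 fold change between the lines was 3.02, and with the melanocytic score 2.97. The slopes of Map7d1, Map7d2, Kif5a and Klc1 were 0.33, 0.12, 0.35 and 0.0012, and none of them passed over all genes (limma adjusted p = 0.108, 0.606, 0.322 and 0.996). The interval for Map7d1 ran from 0.097 to 0.57, and without B16F0 replicate 5 its slope of 0.39 passed that p threshold (limma adjusted p = 0.0274) but stayed under a slope of 0.5. Kif5b had a slope of -0.20 (limma adjusted p = 0.225).

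**Figure D3:**
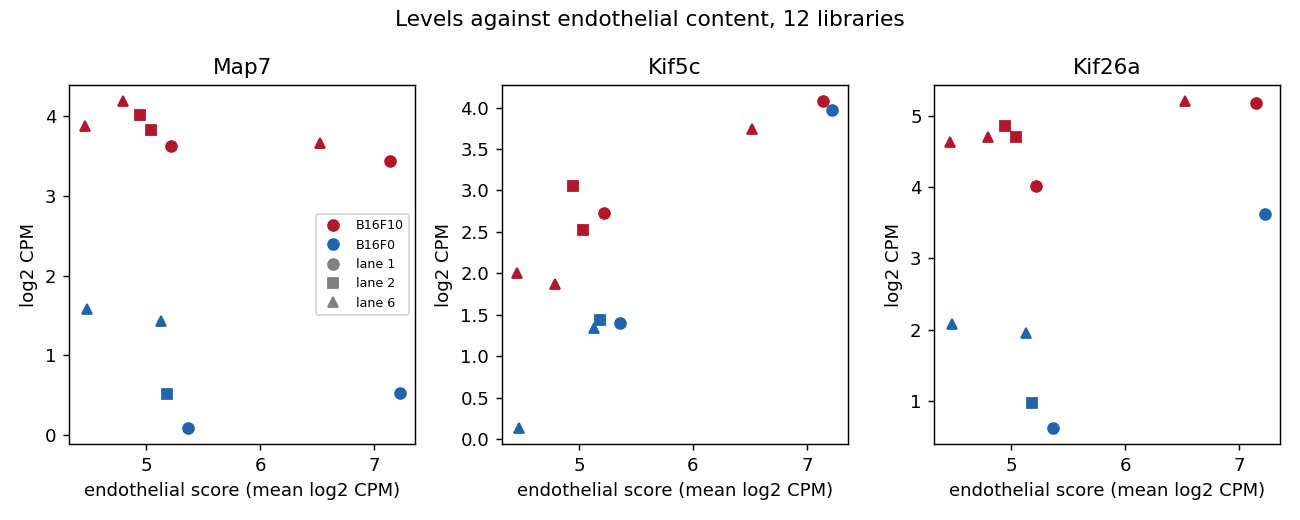
Level of Map7, Kif5c and Kif26a in log2 CPM against the endothelial score of each of the 12 libraries, with B16F10 in red, B16F0 in blue and symbols for the lane. Map7 is split by tumour line at every score, Kif5c is highest in the 3 libraries to the right in both lines, and Kif26a in B16F0 is highest in the 1 endothelial-rich library.

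Kif26a combined a difference between the lines with a higher level in the endothelial-rich libraries. The gene lies on chromosome 12 from 112146208 to 112181747 (GRCm38, plus strand). It stood at 28.7, 25.9, 16.04, 36.1, 36.6, 25.8 and 24.6 CPM in B16F10 replicates 1 to 7 and at 1.81, 1.39, 12.1, 3.72 and 4.09 CPM in B16F0 replicates 1 to 5. All B16F10 libraries were above all B16F0 libraries, and the highest value of each line was in an endothelial-rich library. The log2 fold change was 2.74 ± 0.48 (SE), about 6.69-fold. Within lanes 1, 2 and 6 the means of log2 CPM differed by 2.48, 3.804 and 2.82. Without B16F0 replicate 3 the log2 fold change was 3.43. In the authors' deposited table the log2 fold changes of Kif26a and Map7 were 2.93 and 3.00.

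The endothelial slope of Kif26a was 0.68 (95% interval 0.22 to 1.14) and did not pass over all genes (limma adjusted p = 0.0912). Leaving out B16F10 replicate 5 or B16F0 replicate 1 brought it past the threshold, at 1.01 (limma adjusted p = 0.0183) and 0.72 (0.0203). It was 0.34 without B16F0 replicate 3 (limma adjusted p = 0.446), 0.51 without B16F0 replicate 2 (0.250), 0.25 with both scores in the fit (0.739) and -0.11 without the 3 libraries of highest score. Whether the slope differs between the lines was tested as an interaction. The B16F10 slope minus the B16F0 slope was -0.68 for Kif26a (95% interval -1.35 to -0.0044) and -0.54 for Kif5c (-1.03 to -0.059), at a limma adjusted p of 0.999718 for both. Limma called 0 of the 13534 genes in this test, and 1.17% of them, among the 9 members these 2, had an unadjusted p under 0.05. The B16F0 side of it rests on replicate 3 alone.

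For Kif26b most B16F10 values were above those of B16F0, and the difference passed under some settings only. It lies on chromosome 1 from 178529125 to 178939200 (GRCm38, plus strand). It was at 20.4, 19.0, 7.14, 27.5, 13.2, 10.2 and 10.3 CPM in B16F10 replicates 1 to 7 and at 5.82, 4.35, 5.03, 6.48 and 9.12 CPM in B16F0 replicates 1 to 5. Only B16F10 replicate 3 lay within the B16F0 range. The log2 fold change was 1.26 ± 0.34 (SE), at an adjusted p of 0.0739 in edgeR. It passed with DESeq2 (1.26, adjusted p = 0.00671), with no filter on low counts (1.19, edgeR adjusted p = 0.0496) and without B16F10 replicate 3 (1.40, edgeR adjusted p = 0.0286), and the authors' deposited table gives 1.14 with an adjusted p of 0.0351. Its endothelial slope was 0.29 (limma adjusted p = 0.395). The antisense gene Gm16564 covers 909 of the 14696 exon bases of Kif26b.

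Of the Kif26 pair, Kif26a made up 79.8 ± 5.26% of the summed level per length in B16F10 and 53.5 ± 18.0% in B16F0. The B16F0 value in replicate 3, 83.6%, was inside the B16F10 range of 73.6% to 85.5%, while the other 4 B16F0 libraries lay between 39.7% and 54.9%. The pair's summed level was 5.05 ± 1.40 and 1.09 ± 0.63 CPM per kb in these groups.

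Across the set, 2 of the 9 tested members, Map7 and Kif26a, were called as higher in B16F10 and 0 as lower, where 1.30% and 1.47% of all tested genes were. Since these 2 genes were chosen for this contrast, nothing is read from the count. The same genes were the 2 members without overlap between the groups, where 1.27% of all tested genes had every B16F10 library above every B16F0 library and 1.46% the reverse. The median log2 fold change of the 9 tested members was 0.35, and that of all tested genes was 0.019. Of the 9, 6 had a value above 0 and 3 below. Map7 and Kif26a, selected on this contrast, are among these 6, so nothing is read from the median or the signs.

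**Figure D4:**
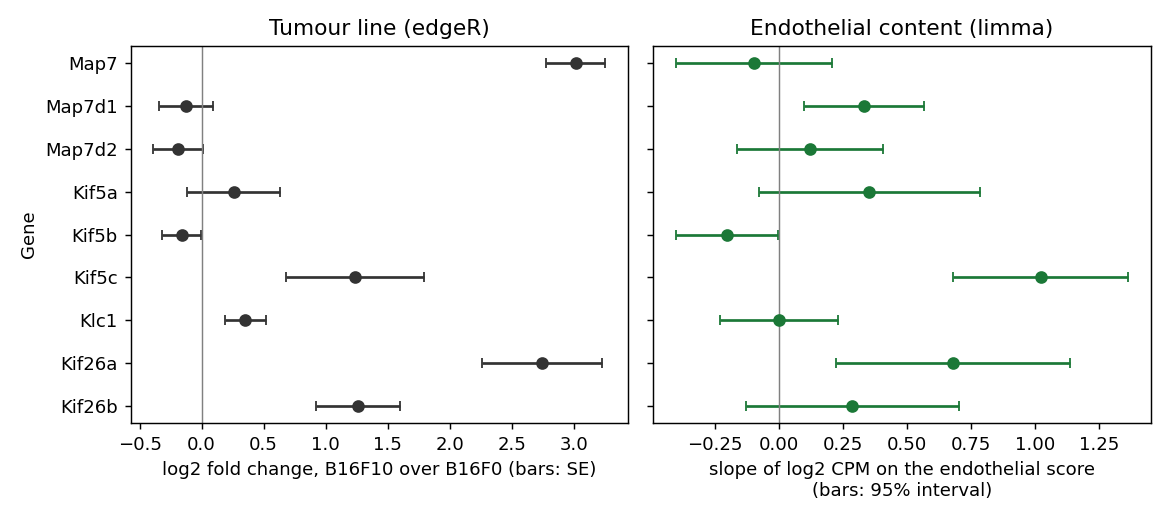
Left, log2 fold change of the 9 tested members between B16F10 and B16F0 with its SE (edgeR). Right, slope of log2 CPM on the endothelial score with its 95% interval (limma). Map7 and Kif26a stand at 3.02 and 2.74 on the left, and Kif5c has the largest slope of the 9, 1.02, on the right.

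With lane in the fit, both Kif26 genes fell as the melanocytic score of the libraries rose, while Kif5b rose with it, and none of these calls held with the library name prefix in place of the lane. With lane and tumour line in the fit, the slopes were -2.87 for Kif26a (95% interval -4.24 to -1.50; limma adjusted p = 0.00621) and -2.01 for Kif26b (-3.06 to -0.97; 0.00894). For Kif5b the slope was 0.80 (0.22 to 1.38; limma adjusted p = 0.0376). The highest Kif5b levels, 871 and 936 CPM, were in B16F10 replicate 3 and B16F0 replicate 2, the libraries with the highest melanocytic scores, 8.91 and 8.98. The names of these 2 libraries begin with the same prefix, whose meaning is not given, as do those of B16F10 replicate 4 and B16F0 replicate 3, the 2 with the highest endothelial scores. B16F10 replicate 3 and B16F0 replicate 2 had the lowest level of each Kif26 gene in their line. Such slopes were common, since 15.6% of tested genes rose with this score and 17.1% fell by the same rule. Kif5c had a slope of -2.58 that did not pass (limma adjusted p = 0.0506), and those of the other 5 tested members lay between -1.01 and 0.026.

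These slopes depended on the batch term and on a few libraries, and the melanocytic score ran only from 8.16 to 8.98. With the prefix in place of the lane, a setting added after seeing the data, the slopes were 0.84 for Kif26a (limma adjusted p = 0.772), -3.64 for Kif26b (0.185) and 1.28 for Kif5b (0.282), and 0 genes of the table were called. Under the same setting the endothelial slope of Kif5c was 1.03 and passed (limma adjusted p = 0.0161). After lane and line were removed, the melanocytic and endothelial scores had a Pearson's r of -0.70 over the 12 libraries, given as a description. The call of Kif5b was lost in 14 of 22 alternatives, among them each single library left out except B16F10 replicate 5 and B16F0 replicates 1 and 4. That of Kif26b was lost without B16F10 replicate 3 (-2.19, limma adjusted p = 0.0642) and without B16F10 replicate 4 (-1.27, 0.0768). The slope of Kif26a was -1.73 without B16F0 replicate 3 (limma adjusted p = 0.0185). With the endothelial score in the same fit, Kif26b kept its call (-2.52, limma adjusted p = 0.0225), whereas Kif26a was at -2.24 (0.0816) and Kif5b at 0.56 (0.323). With the melanocytic score as a covariate, the log2 fold change between the lines was 2.04 for Kif26a and 0.52 for Kif26b (edgeR adjusted p = 0.259 for Kif26b).

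**Figure D5:**
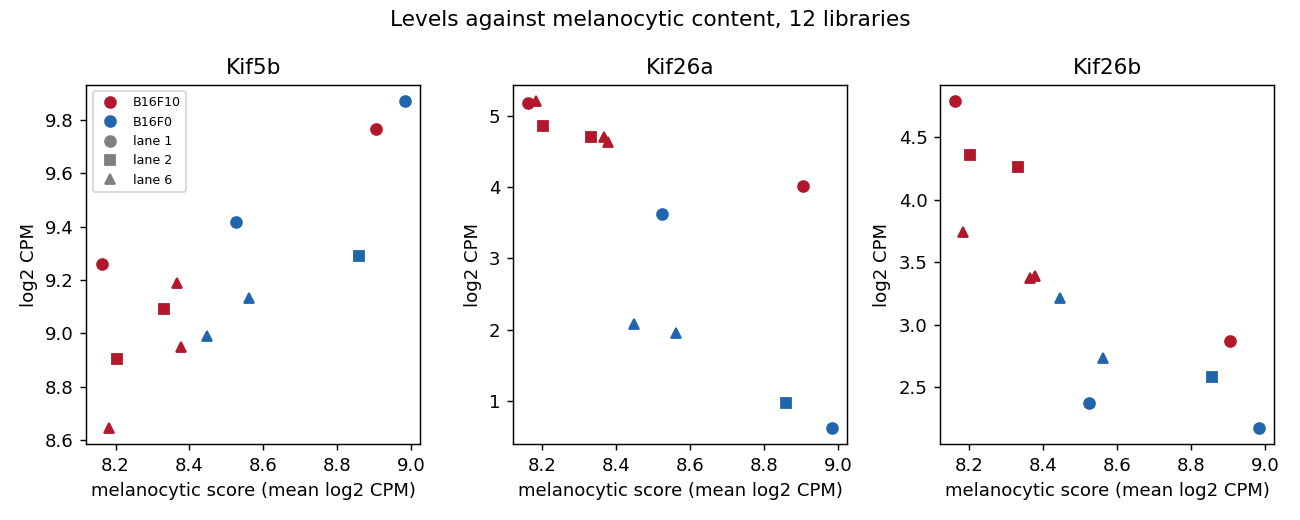
Level of Kif5b, Kif26a and Kif26b in log2 CPM against the melanocytic score of each of the 12 libraries, with B16F10 in red, B16F0 in blue and symbols for the lane. Kif5b is highest, and the Kif26 genes are lowest in each line, in the 2 libraries with scores of 8.91 and 8.98, which share a name prefix.

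Markers of other host cells differed widely between the B16F10 libraries. The summed level of 8 mural cell genes was 291 and 356 CPM in B16F10 replicates 1 and 2, which held Kif26b at 20.4 and 19.0 CPM, and 52.0 to 102 CPM in the other 5 B16F10 libraries. It ranged from 41.5 to 106 CPM in B16F0, with the highest value in replicate 3, where Kif26b was at 5.03 CPM. The 8 fibroblast genes summed to 187 to 1998 CPM in B16F10 and 184 to 842 CPM in B16F0, and 10 skeletal muscle genes to 11.6 to 234 CPM and 6.83 to 21.8 CPM. None of the 8, 8 and 3 tested genes of these lists was called between the lines in edgeR's test (3, 1 and 2 were higher and 0 lower at an unadjusted p under 0.05), and no listed gene was at 0 in all libraries. Kif26b was highest, at 27.5 CPM, in B16F10 replicate 4, where the mural genes summed to 102 CPM. B16F10 replicates 1 and 2 also had the highest sums of the olfactory, vomeronasal and taste receptor genes, 807 and 670 CPM. The part of these cells and of these reads in the Kif26b level was not tested.

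The genes most like Map7 and Kif26a in their pattern were sought by Pearson's r of log2 CPM over the 12 libraries. The search covered 10137 tested genes whose mean reached 5 CPM, with predicted-gene symbols (Gm, Rik) left out. The 5 most like Map7 were the lysosomal channel gene Mcoln3 (r = 0.99), the collagen gene Col4a4 (0.96), the guidance ligand gene Slit2 (0.96), Fam73a (0.95) and the junctional receptor gene Cxadr (0.94). The 5 most like Kif26a were Pabpc4l (r = 0.97), the co-receptor gene Nrp2 (0.94), the transporter gene Abca4 (0.93), the homeobox gene Hoxb9 (0.93) and Cpt1c (0.93). The points share the 2 tumour lines and the lanes. With both removed, r was between 0.68 and 0.91 for the 5 genes like Kif26a. It was between -0.11 and 0.56 for those like Map7, whose pattern is mostly that of the line. The genes were picked for a high r in these same libraries, and the endothelial and melanocytic scores were not removed. These r values are therefore a description only.

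Of 141 tested genes in 7 lists on microtubules, their motors and the signalling partners of the Kif26 genes, 1 rose and 4 fell between the lines, a share near the 2.77% of all tested genes called in either direction. None of 18 light chains, adaptors and cargo links of kinesin-1 passed (edgeR; 3 higher and 1 lower at an unadjusted p under 0.05), nor any of 30 other kinesins (1 and 5), 12 tubulins (1 and 1) or 11 genes of Ret, Grb2 and Par polarity (1 and 0). Trak2, which links kinesin-1 to mitochondria, had the smallest p of its list, averaging 353 ± 28.5 CPM in B16F10 against 256 ± 36.7 CPM in B16F0, with no overlap between the groups (edgeR adjusted p = 0.0942). In the same position among the kinesins, the minus-end motor gene Kifc3 had -0.59 on the log2 scale (edgeR adjusted p = 0.053). Tuba4a, an alpha-tubulin gene, and Gfra1, a co-receptor of Ret, had log2 fold changes of 0.49 and 1.90 (edgeR adjusted p = 0.279 and 0.162).

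The 1 gene that rose was Map1a, which encodes a microtubule-binding protein best known from neurons, among 26 tested microtubule-associated genes outside the Map7 family. It averaged 16.8 ± 5.28 CPM in B16F10 against 5.58 ± 1.42 CPM in B16F0, and its log2 fold change was 1.52 ± 0.25 (SE), at an adjusted p of 0.006 in edgeR. Of 23 genes of dynein, dynactin and their adaptors, the motor complex that runs the other way, 2 fell. These were the cargo adaptor genes Hook1 (log2 fold change -0.95, edgeR adjusted p = 0.00728) and Bicd1 (-0.52, 0.0394). Hook1 was at 25.4 ± 7.24 CPM against 50.2 ± 8.38 CPM, and Bicd1 at 109 ± 12.0 CPM against 158 ± 8.91 CPM. For each of the 3 genes the groups did not overlap.

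Of 21 tested genes of Wnt5a, Ror and planar polarity, the pathway in which Kif26b acts, 2 fell and 0 rose. Prickle1, a core polarity protein gene, averaged 79.1 ± 15.3 CPM in B16F10 against 157 ± 26.2 CPM in B16F0, which is -0.98 ± 0.17 on the log2 scale (SE), at an adjusted p of 0.00725 in edgeR. For Fzd3, a Wnt receptor gene, the change was -0.76 ± 0.17 (SE), at an adjusted p of 0.0311 in edgeR, with overlapping groups. The medians of the 7 lists lay between -0.17 and 0.066 on the log2 scale.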

How the data were processed

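The deposited count table holds whole reads per gene for 12 libraries of ribosome-bound mRNA, which were prepared with the ScriptSeq kit per the labels' protocols. Per the submitters' processing notes, the authors used mm10 with STAR 2.2.1, cutadapt 1.16, featureCounts 1.6.0, R 3.3.2 and edgeR. Settings, annotation and strandedness: not given in the sources used here. The authors' deposited comparison table has log2 fold changes and p-values with a decimal comma, read as a point. Its F statistic, a score the authors deposited, was not used, nor was a normalized table in which decimal points are missing.

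Groups came from the labels and lanes from the library names. Of 24421 symbols, 13534 passed edgeR's filterByExpr (minimum count 10). After TMM scaling, each gene was tested with the quasi-likelihood F test of edgeR 4.0.16 in R 4.3.3, with lane and tumour line as factors, Benjamini-Hochberg adjustment over all tested genes and a threshold of 0.05. The standard error is the fold change over the square root of F. Slopes on the scores were fitted with limma 3.58.1 (trend) on log2 CPM with a prior count of 2, with lane and line in the model. DESeq2 1.42.0 was an alternative. The depth per library limits Map7d3, Kif5c, Map7 and Kif5a most, which have 1, 9, 15 and 15 reads in their lowest libraries. Gene positions and exon lengths are from GENCODE M21 (GRCm38) and upstream sequences from RefSeq (GRCm38.p6). Chi-square tests found more than sampling noise between all 31 pairs of libraries within a group.

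The named genes are the 10 members, of each pathway list up to 4 called genes with the smallest p or otherwise the 1 with the smallest p, and the 5 genes most like Map7 and Kif26a. The members, gene lists and rules were chosen with earlier results of these data known. Alternatives were no lane term, the name prefix, replicate number, endothelial or melanocytic score or Ddx3y level in the fit, other scalings, filters and tools, single marker genes as scores, and libraries left out. The Ddx3y fit, the prefix in the slope fits, the melanocytic list without Kit and Ednrb, and the alternatives to the interaction were added after seeing the data.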

Additional observations from a re-analysis of the deposited data

Results flagged for a closer look

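Of 20 groups of member values, 3 held a library farther from the rest than Dixon's criterion allows. Chance flags about 1 in 20 groups where values are normally distributed and the groups independent. The criterion was applied here to CPM without a log, so that rate may not hold. All 3 flagged values are in B16F0. Kif5c was at 15.5 CPM in B16F0 replicate 3, against at most 2.54 CPM in the other 4 libraries of the group, and Kif26a was at 12.1 CPM in the same library, against at most 4.09 CPM. This is the endothelial-rich library of B16F0, with Cdh5 at 764 CPM. It also had the highest level of Ddx3y, 78.1 CPM, against 0 to 29.2 CPM in all other libraries of both lines. Map7d2 was at 36.6 CPM in B16F0 replicate 5, against at most 22.3 CPM in the other 4. In that library Rn45s took over 5% of counts. The part of these library properties in the 3 values was not tested.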

How the results depend on the processing

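Over 29 alternatives to the comparison of the lines the log2 fold change ran from 2.71 to 3.18 for Map7 and from 2.04 to 3.43 for Kif26a. Both were selected on this contrast, so their calls are counted here without reading support from them. The number of members called, 2, was 1 with the replicate block, without the libraries over 5% Rn45s and without lane 2, where Kif26a, at 3.05, 2.64 and 2.47, was not called. It was 3 with the endothelial score added, with no filter, with DESeq2 and at a threshold of 0.1, and 2 to 3 with 1 library left out. The replicate numbers do not pair the libraries, since 1 of 5 pairs correlated above 0.1 (range -0.29 to 0.32) and 1 B16F10 library correlated best with its own number. With the replicate block, 58 genes of the table were called where the fit with lanes called 375, 0 members followed either score, and Kif5c had an endothelial slope of 1.03 (limma adjusted p = 0.0691). DESeq2 called 852 genes. Without the 3 libraries of highest endothelial score 0 members followed it, and 1 to 2 did with 1 library left out. For the melanocytic score, where 3 members were called, the number was 0 with the library name prefix, 1 with both scores in the fit, with Dct in place of the list and without those 3 libraries, and 1 to 4 with 1 library left out. The interaction called 0 members under all 14 alternatives.

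Signs changed for values that had not passed and for the melanocytic slope of Kif26a, which was 0.84 with the library name prefix. Log2 fold changes became 0.00044 for Map7d1 with the library name prefix and 0.021 without lane 2, -0.082 for Kif5a and 0.071 for Kif5b with the melanocytic score, and 0.034 for Map7d2 and -0.19 for Kif5a with limma-voom. With 1 library left out they ran from -0.27 to 0.0011 for Map7d1 and from -0.037 to 0.40 for Kif5a. Endothelial slopes became -0.065 for Map7d2 and 0.033 for Kif5b with no lane term, -0.20 with both scores and -6.21e-05 with the prefix for Kif26b, and -0.016 and -0.0022 for Klc1 with Cdh5 alone and with RLE scaling. Without the 3 endothelial-rich libraries they were -0.59 for Map7d1, -1.60 for Map7d2, -0.30 for Kif5a, 0.33 for Kif5b, -0.74 for Klc1, -0.11 for Kif26a and -0.58 for Kif26b. With 1 library left out they ran from -0.21 to 0.069 for Map7 and from -0.18 to 0.052 for Klc1. Melanocytic slopes became 0.073 for Map7d1 and 0.016 for Kif5c with both scores, 0.12 with limma-voom and 0.96 with the prefix for Map7, -2.23 for Klc1 with the prefix, 0.17 for Map7d2 with Dct alone, and 0.0069 for Map7d1, 0.038 for Kif5c and -1.04 for Klc1 without those 3 libraries. For Klc1 they ran from -0.13 to 0.12 with 1 library left out. The causes were not tested.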

Other observations

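Besides Kif5c, 4 of the 141 tested genes in the lists of microtubule transport and polarity followed the endothelial score by the same rule, where 3.83% of all tested genes did. They were named after their values were seen. Ptk7, a receptor-like protein of planar polarity, was at 22.5 to 24.8 CPM in the 3 endothelial-rich libraries and 1.78 to 7.80 CPM in the other 9 (slope 1.29, limma adjusted p = 7.95e-05). Mtus1, a microtubule-associated tumour suppressor gene, was at 36.1 to 44.2 CPM against 9.78 to 18.9 CPM (slope 0.90, limma adjusted p = 0.000209). For both genes the endothelial-rich libraries of the 2 lines lay above all others. Tubb2a, a beta-tubulin gene, had a slope of 0.64 (limma adjusted p = 0.0347) and Ret, the receptor linked to Kif26a, one of 1.21 (0.0416), with Ret at only 0.38 to 6.95 CPM. None of the 4 passed between the tumour lines (edgeR adjusted p from 0.72 to 0.917).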
